A study of Mus musculus with 9 samples.

Results

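A set of 10 genes that encode C-type lectin receptors of myeloid cells was followed in mouse ear skin: Clec4e, Clec4d, Clec4n, Clec7a, Clec5a, Clec4a1, Clec4a2, Clec4a3, Clec12a and Clec10a. They were chosen by name, as the rows of the deposited gene table that carry these symbols, and all 10 were found among its 25124 genes. The skin came from C57BL/6 mice whose ears were swabbed on alternate days with LM087, a strain of the skin commensal Staphylococcus epidermidis, until day 8, when a small piece of ear was dissected and its total RNA sequenced. The bacterium was the only treatment in 5 libraries, and 4 came from mice also given an antibody against CTLA-4, the inhibitory receptor by which T cells are restrained. All 9 libraries therefore come from bacterium-treated skin, and untreated skin and antibody without bacterium were not analysed here. The labels name no transgene or mutant allele. The age and sex of the mice, the antibody's clone and dose, and whether each library is a separate mouse were not stated in the sources used, so p-values measure the spread between these libraries.

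C-type lectin receptors carry an extracellular domain that binds sugars, lipids or other ligands of microbes and damaged cells. The activating members signal through an ITAM, a tyrosine motif that recruits the kinase SYK, either in their own tail or in a partner chain such as FcRgamma or DAP12, and onward to CARD9, BCL10 and MALT1 and to NF-kappaB. The inhibitory members carry an ITIM, a motif that recruits the phosphatases SHP-1 and SHP-2, while Clec10a is known mainly as an endocytic receptor. In skin these receptors are carried by monocytes, macrophages, dendritic cells and, for several of them, neutrophils.

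Most of the receptors were higher when the antibody was given. Of the 10, 8 rose (limma on log2(TPM + 1), Benjamini-Hochberg adjusted p below 0.05 over 15704 genes) and 0 fell, where 7.16% of all tested genes rose, 4.48% fell and 11.6% changed in either direction. The rises were between 0.77 and 1.49 on the log2 scale, and the median over all 10 members was 1.20, beside a median of -0.01 over all tested genes. In 9 of the 10 the lowest antibody library lay above the highest library of the bacterium alone, which 8.02% of tested genes did. Clec10a was the member whose groups overlapped. Summed over the members, transcript abundance lay between 57.0 and 76.5 TPM for the bacterium alone and between 112 and 152 TPM with the antibody. In bulk tissue, more cells of a type and more RNA per cell cannot be told apart. TPM is the authors' unit of transcript abundance, and adding 1 before the logarithm makes fold changes of genes with few TPM too small.

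**Figure D1:**
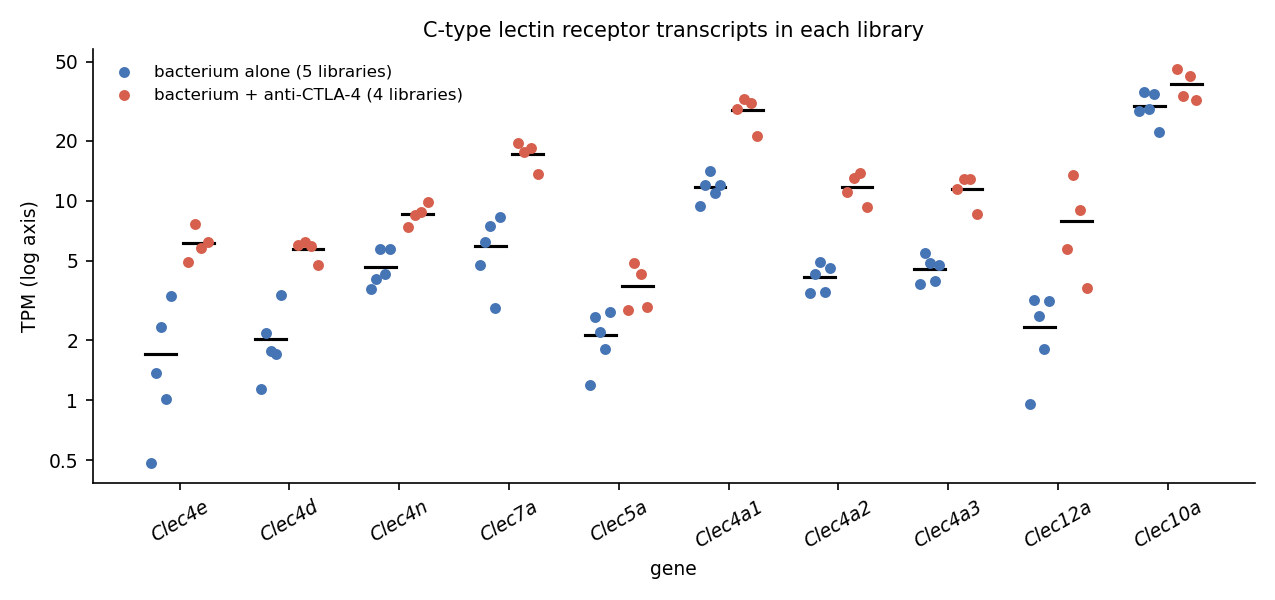
Transcript abundance (TPM, log axis) of the 10 receptors, 1 point per library, for the bacterium alone (5 libraries) and with anti-CTLA-4 (4 libraries), with bars at the group means. The points of the 2 groups are separate for every receptor except Clec10a, and they lie closest together for Clec5a.

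Clec4e encodes Mincle, a receptor for mycobacterial and fungal glycolipids and for a nuclear protein released by dying cells, and Clec4d encodes MCL (Dectin-3), which forms a complex with Mincle. Both signal through FcRgamma. Their genes lie next to each other on chromosome 6 and point towards each other. Clec4e stood at 0.484, 1.36, 2.33, 1.01 and 3.32 TPM in replicates 1 to 5 of the bacterium alone and at 4.91, 7.62, 5.80 and 6.20 TPM in replicates 1 to 4 with the antibody. All 4 antibody libraries stood above replicate 5, the highest library of the bacterium alone, and replicate 1 of the bacterium alone was the lowest of all. The mean went from 1.70 ± 1.13 to 6.13 ± 1.13 TPM (SD over 5 and 4 libraries), and the rise on the log2(TPM + 1) scale used throughout was 1.49 ± 0.28 (SE; limma, adjusted p = 0.0114). Of the members, Clec4e had the lowest mean level with the bacterium alone, where it rested on as few as 6 reads in a library. Clec4d stood at 1.14, 2.16, 1.77, 1.70 and 3.38 TPM in replicates 1 to 5 of the bacterium alone and at 6.03, 6.24, 5.95 and 4.77 TPM in replicates 1 to 4 with the antibody. Its antibody libraries were close together and its groups did not overlap. The log2 rise of Clec4d was 1.19 ± 0.18 (limma, adjusted p = 0.00502).

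The promoters of this neighbouring pair are shown because both genes rose, with the core of the myeloid transcription factor PU.1 in capitals (GAGGAA, or TTCCTC where it lies on the other strand). The windows run from 250 bases before to 50 bases after the RefSeq gene start (build GRCm38.p6), at chr6:123289822-123290121 on the minus strand and chr6:123261857-123262156 on the plus strand, and read 5′ to 3′ along the gene.
Clec4e: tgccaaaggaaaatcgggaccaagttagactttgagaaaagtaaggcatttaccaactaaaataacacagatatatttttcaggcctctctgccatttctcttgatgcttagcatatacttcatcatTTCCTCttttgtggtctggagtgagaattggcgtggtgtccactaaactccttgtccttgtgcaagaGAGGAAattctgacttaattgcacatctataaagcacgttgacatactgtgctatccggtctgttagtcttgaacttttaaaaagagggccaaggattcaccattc
Clec4d: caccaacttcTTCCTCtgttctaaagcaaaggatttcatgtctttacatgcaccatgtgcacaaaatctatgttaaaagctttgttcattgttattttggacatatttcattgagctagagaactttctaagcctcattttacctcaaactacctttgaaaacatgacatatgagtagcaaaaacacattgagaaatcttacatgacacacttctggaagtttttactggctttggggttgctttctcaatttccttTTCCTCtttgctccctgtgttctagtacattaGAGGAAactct
In the Clec4e window the cores start 123 and 56 bases before the gene start, and a match to the C/EBP motif TTGCNNAA starts 66 bases before it. The Clec4d window holds 3 cores, at 240 bases before and at 7 and 39 bases after the gene start. It also holds a match to the interferon-stimulated element (GAAA, any 2 bases, GAAA) at the gene start, on the other strand, which overlaps the core that starts 7 bases after it.

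Clec4n encodes Dectin-2, which binds mannose-rich walls of fungi and pairs with FcRgamma. Clec4n stood at 3.60, 4.06, 5.75, 4.27 and 5.71 TPM in replicates 1 to 5 of the bacterium alone and at 7.36, 8.48, 8.77 and 9.81 TPM in replicates 1 to 4 with the antibody. The lowest antibody library stood above the highest of the bacterium alone, and the log2 rise was 0.77 ± 0.13 (limma, adjusted p = 0.00744), the smallest among the 8 that passed. Clec7a encodes Dectin-1, the receptor for beta-glucan, which carries its own ITAM-like motif. Clec7a stood at 4.78, 6.18, 7.48, 2.91 and 8.33 TPM in replicates 1 to 5 of the bacterium alone and at 19.4, 17.6, 18.4 and 13.6 TPM in replicates 1 to 4 with the antibody. Replicate 4 of the bacterium alone was the lowest library and antibody replicate 4 the lowest of its group, yet the groups stayed apart. The mean of Clec7a went from 5.93 ± 2.16 to 17.3 ± 2.53 TPM, a log2 rise of 1.45 ± 0.24 (limma, adjusted p = 0.00602).

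Clec5a encodes MDL-1, a receptor that signals through DAP12 and is known from monocytes and neutrophils. Clec5a stood at 1.20, 2.61, 2.19, 1.80 and 2.78 TPM in replicates 1 to 5 of the bacterium alone and at 2.83, 4.89, 4.30 and 2.93 TPM in replicates 1 to 4 with the antibody. The gap between the groups was narrow: 2.78 TPM was the highest value of the bacterium alone and 2.83 TPM the lowest with the antibody. Its log2 fold change of 0.61 ± 0.19 had a 95% interval of 0.18 to 1.03 and did not pass the test (limma, adjusted p = 0.0704). It passed in a fit to the recovered reads, described with the processing, which was added after the data were seen (limma voom, adjusted p = 0.0238). That fit called 9 of the 10 members higher, where it called 11.7% of all tested genes higher.

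Clec4a1, Clec4a2 and Clec4a3 encode the DCIR family of receptors. Clec4a2 (DCIR1) carries an ITIM and restrains dendritic cells, while Clec4a1 (DCIR4) and Clec4a3 (DCIR3) are close relatives encoded nearby. Clec4a1 stood at 9.44, 12.1, 14.2, 10.9 and 11.99 TPM in replicates 1 to 5 of the bacterium alone and at 28.95, 32.4, 31.1 and 21.2 TPM in replicates 1 to 4 with the antibody. Clec4a2 stood at 3.47, 4.27, 4.96, 3.48 and 4.61 TPM in replicates 1 to 5 of the bacterium alone and at 11.1, 13.01, 13.7 and 9.30 TPM in replicates 1 to 4 with the antibody. Clec4a3 stood at 3.82, 5.46, 4.86, 3.98 and 4.75 TPM in replicates 1 to 5 of the bacterium alone and at 11.5, 12.9, 12.9 and 8.63 TPM in replicates 1 to 4 with the antibody. In all 3 genes antibody replicate 4 was the lowest of its group and still exceeded every library of the bacterium alone. The log2 rises were 1.20 ± 0.14 for Clec4a1, 1.31 ± 0.13 for Clec4a2 and 1.16 ± 0.13 for Clec4a3 (limma, adjusted p = 0.00235, 0.00212 and 0.00220). In this fit these were the smallest adjusted p-values among the members. Of the 75-base stretches of the Clec4a2 transcript, 4.03% are shared exactly with transcripts of Clec4a4 or Clec4b1, so a small part of its reads could be split or lost in the authors' counting.

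Clec12a encodes an inhibitory receptor for uric acid crystals that carries an ITIM. Clec12a stood at 0.952, 3.16, 2.63, 1.80 and 3.14 TPM in replicates 1 to 5 of the bacterium alone and at 5.71, 13.5, 8.99 and 3.66 TPM in replicates 1 to 4 with the antibody. Antibody replicate 2 stood far above the others, and antibody replicate 4 was only slightly above the highest library of the bacterium alone. The log2 rise of 1.35 ± 0.34 passed (limma, adjusted p = 0.0331), but it was lost in 5 of 9 fits that each left out a library. Those libraries were replicates 1 and 4 of the bacterium alone and replicates 1, 2 and 3 with the antibody, with adjusted p up to 0.0776 (limma). Clec10a encodes MGL1, a galactose-binding receptor of dermal macrophages and dendritic cells. Clec10a stood at 28.2, 35.1, 28.97, 34.5 and 22.1 TPM in replicates 1 to 5 of the bacterium alone and at 45.9, 33.6, 42.3 and 32.04 TPM in replicates 1 to 4 with the antibody. Replicates 2 and 4 of the bacterium alone exceeded antibody replicates 2 and 4, so the groups overlapped. The log2 fold change of 0.36 ± 0.15 did not pass (limma, adjusted p = 0.167, 95% interval 0.02 to 0.70). In Clec10a 6.42% of the 75-base stretches are shared with Mgl2, its neighbouring relative.

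Clec10a stood apart from several members in the size of its fold change. Of the 45 pairs of members, 6 had 95% intervals of the log2 fold change that were separate, which is a description and not a test of each pair. Each of these pairs had Clec10a on the lower side, against Clec4d, Clec4e, Clec4a1, Clec4a2, Clec4a3 or Clec7a. For the other pairs, Clec5a and Clec12a included, the intervals overlapped, which does not show that the members moved alike. The libraries also differed within a group. Replicate 1 of the bacterium alone was the lowest of its group for 8 members, all but Clec7a and Clec10a, and replicate 5 was the highest for Clec4d, Clec4e, Clec7a and Clec5a. With the antibody, replicate 4 was the lowest for 7 members, all but Clec4e, Clec4n and Clec5a, and replicate 2 was the highest for 6.

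The order of the levels depends on what they are divided by. The deposited TPM divides by the genomic span of each gene, introns included, and by that measure Clec10a, whose gene is short, stood highest in both groups. Dividing the recovered reads by the length of the longest coding transcript in GENCODE M21 gives an RPKM, the reads per kilobase of transcript scaled to the library's reads. On this scale, with the bacterium alone, Clec4a1 stood highest at 12.1 ± 1.98 RPKM (SD), followed by Clec4n at 8.26 ± 1.92, Clec4a3 at 7.65 ± 1.21 and Clec10a at 6.75 ± 1.05. Below them came Clec4a2 at 4.38 ± 0.802, Clec7a at 3.71 ± 1.43, Clec4d at 2.55 ± 1.11 and Clec12a at 1.78 ± 0.744, and at the end Clec5a at 0.778 ± 0.245 and Clec4e at 0.695 ± 0.477. Neighbours in this order differed by more than their SDs only between Clec10a and Clec4a2 and between Clec12a and Clec5a.

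With the antibody, Clec4a1 stayed first at 30.1 ± 5.10 RPKM, apart from Clec4a3, which came next at 19.6 ± 3.20. Clec4n followed at 15.5 ± 1.78, Clec4a2 at 12.6 ± 1.87 and Clec7a at 10.96 ± 1.63. Clec10a now came after these 5, at 8.97 ± 1.58, ahead of Clec4d at 7.39 ± 0.863 and Clec12a at 6.16 ± 3.30. The last positions were held by Clec4e at 2.54 ± 0.475 and Clec5a at 1.40 ± 0.363, which had changed places and were separate by their SDs. From Clec4a3 down to Clec4e no neighbours were.

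A set of pan-leukocyte genes was higher with the antibody, so the members were also measured against it. The 10 pan-leukocyte genes, such as Ptprc, which encodes CD45, all rose, and their mean log2(TPM + 1) went from 3.89 ± 0.178 to 4.93 ± 0.168 (SD, n = 5 and n = 4; summed 166 to 224 and 397 to 509 TPM). When this mean was subtracted in each library, 94.5% of all genes were called, 94.2% lower and 0.35% higher, so adjustment hardly alters a p-value on this scale. Clec7a was higher by 0.41 and Clec4a2 by 0.27 relative to these genes (limma, adjusted p = 0.0425 and 0.0332), and Clec10a and Clec5a were lower, at -0.68 and -0.43 (limma, adjusted p = 0.00407 and 0.0175). The other 6 did not pass: Clec4e at 0.45, Clec12a at 0.31, Clec4a1 at 0.17, Clec4d at 0.15, Clec4a3 at 0.12 and Clec4n at -0.27. The 2 higher calls and the signs of 4 other members depended on the settings. With a pseudocount of 5 there were 0 higher and 4 lower, and with 0.1 there were 3 higher and 1 lower. Over all alternatives the lowest values of Clec4d, Clec4e, Clec12a and Clec4a3 were -0.23, -0.10, -0.07 and -0.07, so their direction on this scale was not settled. Clec7a and Clec4a2 each passed in 3 of 9 fits without a library, whereas Clec10a passed in all 9 and Clec5a in 8. The fall of Clec5a also depended on the settings. Over all alternatives Clec5a stayed below 0, at -0.55 to -0.28, but passed in 16 of 20, with adjusted p up to 0.321 (limma). Clec10a passed in 20 of 21.

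The members were measured in the same way against monocyte and macrophage genes, such as Cd68, Itgam, Ccr2 and C1qb. The mean of these 14 genes went from 4.72 ± 0.169 to 5.50 ± 0.182 on the log2 scale (summed 932 to 1169 and 1320 to 1801 TPM), and 9 of the 14 rose. Relative to it, 90.4% of all genes were called, 0.86% higher and 89.5% lower, and 7 members were higher and 1 lower. The higher ones were Clec4e by 0.72, Clec7a by 0.68, Clec12a by 0.58, Clec4a2 by 0.53, Clec4a1 by 0.43, Clec4d by 0.42 and Clec4a3 by 0.38 (limma, adjusted p from 0.000995 for Clec4a2 to 0.0454 for Clec12a). Clec10a was lower, at -0.41 (limma, adjusted p = 0.0361), while Clec5a at -0.17 and Clec4n at -0.003 did not pass. Of these calls 3 rested on few libraries. The call of Clec4d was lost in 8 of 9 fits without a library and its lowest value over the alternatives was -0.01, and those of Clec12a and Clec10a in 5 of 9 each. The calls of Clec4e, Clec7a, Clec4a1, Clec4a2 and Clec4a3 held in all 9.

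**Figure D2:**
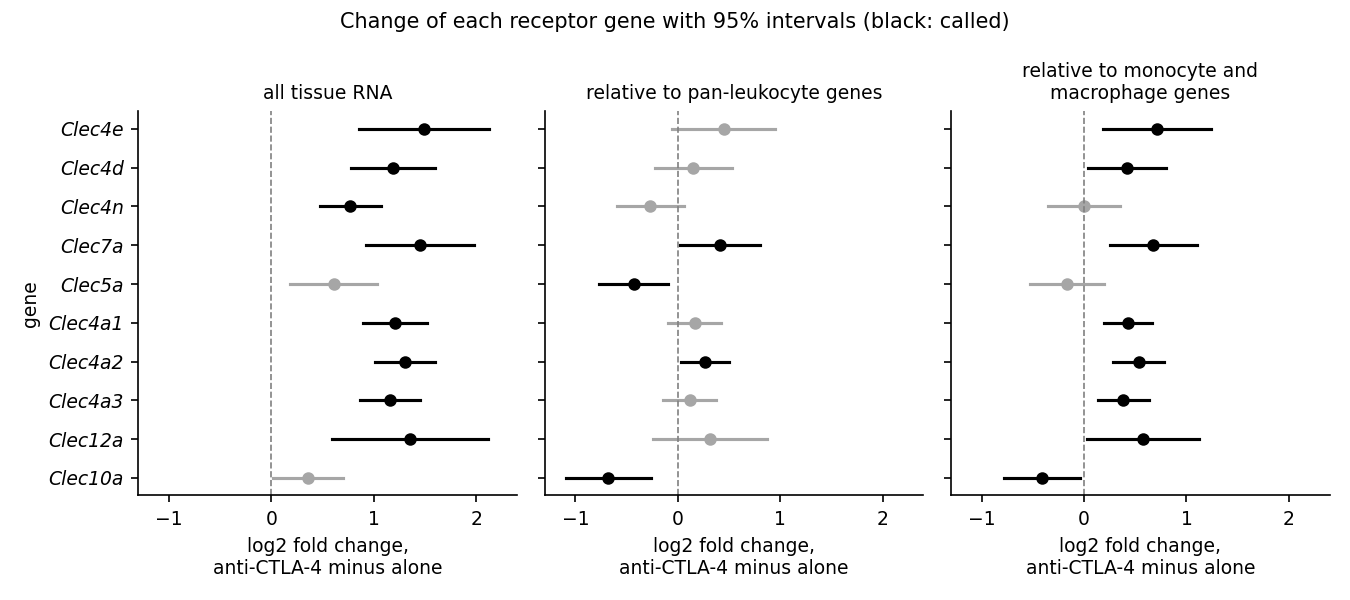
Log2 fold change (anti-CTLA-4 minus the bacterium alone) of each receptor on 3 scales: as log2(TPM + 1), relative to the pan-leukocyte genes and relative to the monocyte and macrophage genes. Points are limma estimates with 95% intervals, black where the adjusted p is below 0.05, which lie above 0 for all 10 members on the first scale before adjustment and shift down on the other 2, where Clec10a lies below 0.

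The genes of 8 members sit in 2 stretches of chromosome 6 (mm10). The first, of 368 kb, runs from Clec4a1 (chr6:122921848-122934619) through Clec4a3, Clec4a2, Clec4n and Clec4d to Clec4e (chr6:123281789-123289871) and holds 9 genes of the family. The 3 that are no members were low. Clec4a4 stood at 0.413 and 0.757 TPM and Clec4b2 at 0.0982 and 0.123, both below the filter of 1 TPM in 4 libraries. Clec4b1 passed the filter mainly through the antibody libraries, and it rose from 0.817 to 1.59 TPM (limma, log2 0.50 ± 0.14, adjusted p = 0.0464).

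The second stretch, of 122.5 kb, runs from Clec12a (chr6:129350244-129365303) to Clec7a (chr6:129461591-129472779), with Clec12b, Clec1b, Clec9a and Clec1a between them. Clec9a, a receptor of cross-presenting dendritic cells, stood at 1.02 and 1.41 TPM and did not pass (limma, adjusted p = 0.206), nor did Clec1a (adjusted p = 0.135). Clec12b and Clec1b were below the filter. In this stretch the 2 genes at its ends rose, and neither of the 2 tested genes between them was called. Both of these had fold changes above 0, at log2 0.25 for Clec9a and 0.30 for Clec1a, from levels near the filter of 1 TPM. Clec5a (chr6:40574898-40585805) lies elsewhere on chromosome 6, and Clec10a (chr11:70166623-70170836) lies on chromosome 11.

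**Figure D3:**
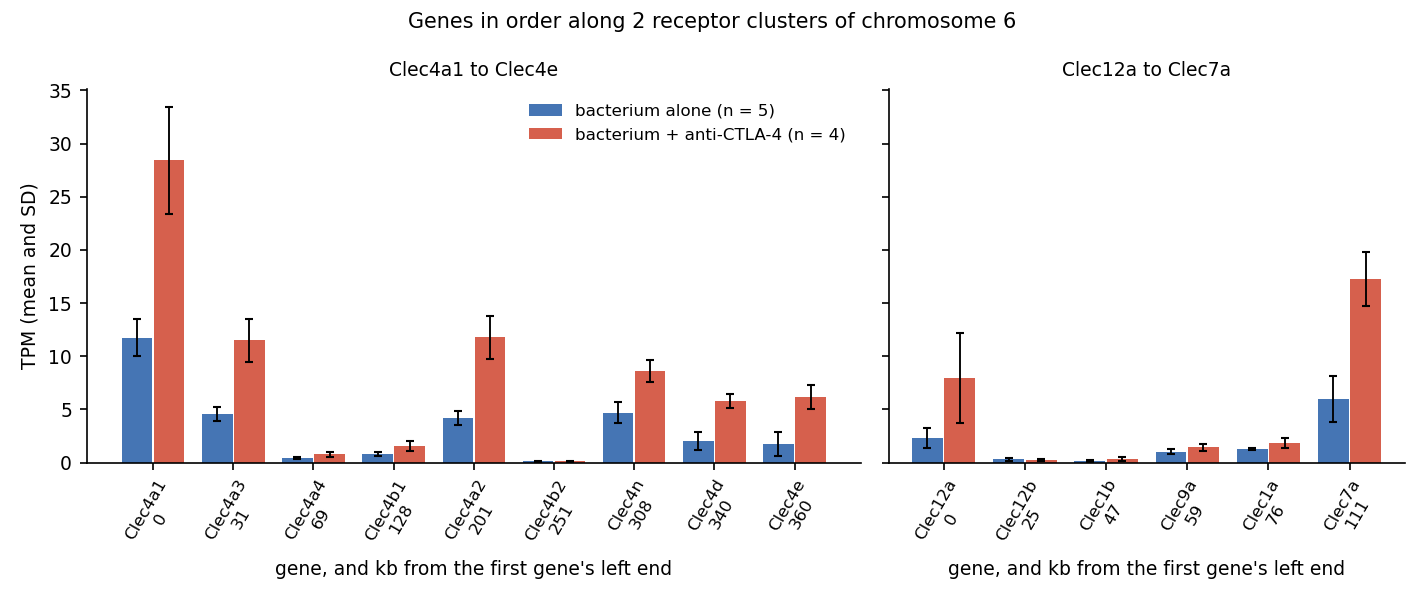
Mean TPM of the C-type lectin genes in the 2 stretches of chromosome 6, in their order along the chromosome with the distance in kb from the first gene, for the bacterium alone (n = 5) and with anti-CTLA-4 (n = 4), with SD as error bars. Members stand above the other genes that lie among them, and Clec4a4, Clec4b2, Clec12b and Clec1b stay below 1 TPM.

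The promoters of the pair at the ends of the second stretch are shown in the same way, with PU.1 cores in capitals, at chr6:129472730-129473029 on the minus strand (the first of 2 RefSeq windows of Clec7a) and chr6:129349994-129350293 on the plus strand (RefSeq, GRCm38.p6).
Clec7a: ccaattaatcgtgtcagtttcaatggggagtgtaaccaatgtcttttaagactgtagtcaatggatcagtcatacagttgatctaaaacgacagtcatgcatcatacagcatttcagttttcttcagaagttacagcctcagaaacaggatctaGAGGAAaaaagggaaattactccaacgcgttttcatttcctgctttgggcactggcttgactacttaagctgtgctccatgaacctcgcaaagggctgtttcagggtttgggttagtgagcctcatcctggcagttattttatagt
Clec12a: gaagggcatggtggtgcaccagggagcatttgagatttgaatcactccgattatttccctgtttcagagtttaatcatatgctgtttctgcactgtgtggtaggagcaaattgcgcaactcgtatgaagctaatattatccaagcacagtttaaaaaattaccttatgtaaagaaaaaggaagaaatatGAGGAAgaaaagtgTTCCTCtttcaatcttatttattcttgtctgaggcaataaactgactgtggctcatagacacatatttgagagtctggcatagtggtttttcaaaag
The Clec7a window holds a core that starts 96 bases before the gene start. The Clec12a window holds 2, at 61 and 47 bases before it, with a C/EBP match 140 bases and an AP-1 match (TGANTCA) 213 bases before it. RefSeq promoter windows were matched for 8 members, all but Clec4n and Clec10a. Counted on both strands, the PU.1 core was in at least 1 window of 7 of these 8, all but Clec4a2. By window, it was in 8 of the 10 windows of these members and in 28.3% of all 32851 promoter windows. The Clec4a2 window (chr6:123122440-123122739) ends before the start of that gene in the deposited table (123123316). The C/EBP motif was in 2 of the 8, Clec12a and Clec4e (10.8% of all windows), the AP-1 motif in Clec12a and Clec4a2 (7.81%), the interferon-stimulated element in Clec4d (3.44%) and the NF-kappaB motif (GGGA, any 2 bases, TTCC) in none (1.47%). In the Clec4e and Clec12a windows the C/EBP matches do not overlap a PU.1 core. Clec4a1 and Clec4a3 shared the longest run of letters between members, 17 bases that include a PU.1 core. A match describes the letters only.

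The chains and kinases that carry the signal of the activating receptors rose in part. Of 17 such genes, all tested, 9 rose and 0 fell, with a median log2 fold change of 0.36. Pairs of values below are the group means. Fcer1g, the FcRgamma chain, went from 34.4 ± 7.81 to 79.5 ± 8.75 TPM (limma, log2 1.21 ± 0.16, adjusted p = 0.00329). Tyrobp, which encodes DAP12, went from 21.7 to 49.1 TPM and Hcst, which encodes DAP10, from 3.36 to 11.1 TPM (limma, adjusted p = 0.00600 and 0.00287). Syk went from 6.33 to 13.05 TPM, the Src-family kinase Lyn from 6.01 to 12.99 TPM and the exchange factor Vav1 from 3.81 to 8.81 TPM (limma, adjusted p = 0.00372, 0.00281 and 0.00217). Pik3cd, Plcg2 and Lat2 also rose. The genes that encode the CARD9 complex downstream of SYK did not pass (limma, adjusted p = 0.169 for Card9, 0.297 for Bcl10 and 0.195 for Malt1). The mean of Card9 was 8.82 TPM without and 10.6 TPM with the antibody. Those of Bcl10 were 21.3 and 23.2 TPM and those of Malt1 12.5 and 14.2 TPM. Tyrobp, Syk, Card9, Bcl10, Malt1, Pik3cd, Plcg2 and Lat2 fall outside the rule for named genes and were chosen after their values were seen.

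Among 10 negative regulators of such signals, 4 rose and 0 fell, with a median log2 fold change of 0.10. They were the adaptors Dok2 (10.8 to 23.96 TPM) and Dok3 (9.75 to 16.9 TPM), Ptpn6, which encodes SHP-1 (20.7 to 32.9 TPM), and Inpp5d, which encodes the lipid phosphatase SHIP1 (8.18 to 12.9 TPM; limma, adjusted p from 0.00235 to 0.00564). Of 18 genes known to be induced by these receptors, 13 passed the filter, 7 rose and 1 fell, with a median of 0.78. Nlrp3, the inflammasome sensor, went from 1.34 ± 0.434 to 4.27 ± 0.292 TPM (limma, log2 1.19 ± 0.13, adjusted p = 0.00217). The chemokines Ccl3 and Cxcl2 went from 1.48 to 10.4 TPM and from 3.88 to 31.5 TPM (limma, adjusted p = 0.0127 and 0.0128). Both varied among libraries of the bacterium alone, with an SD of 1.84 and 5.58 TPM, each above its mean. The transcription factor Egr3 fell from 142 to 110 TPM (limma, adjusted p = 0.0164), and Il12b and Csf3 were below 1 TPM in every library. Without the filter on low values 5 of the target genes were called, 4 of them higher.

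Among 39 other genes with C-type lectin domains, 30 were tested, 6 rose, 1 fell and the median log2 fold change was 0.12. Mrc1, the macrophage mannose receptor, went from 14.7 ± 1.65 to 31.6 ± 5.54 TPM (limma, log2 1.04 ± 0.12, adjusted p = 0.00222). Reg3g, an antibacterial lectin of epithelia, went from 0.240 to 2.20 TPM (limma, adjusted p = 0.00601). Reg3g passed the filter only through the 4 antibody libraries, since its highest value with the bacterium alone was 0.483 TPM, so it had to differ to be tested. Clec2i went from 1.60 to 2.93 TPM and Cd69 and Clec4b1 rose as well, whereas Mrc2, known from fibroblasts, fell from 9.87 to 7.45 TPM (limma, adjusted p = 0.0356 and 0.0362). Clec4b1, at 0.686 to 1.13 TPM with the bacterium alone, also passed the filter mainly through the antibody libraries. Its rise is therefore tied to the filter. The count of 7 called was 3 without replicate 1, 2 or 4 of the bacterium alone and 2 without replicate 1, 2 or 3 with the antibody. It was 3 with no filter and 11 in the fit to recovered reads. The fall of Mrc2 was lost with no filter and in 7 of 9 fits without a library, all but those without replicate 3 or 5 of the bacterium alone.

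**Figure D4:**
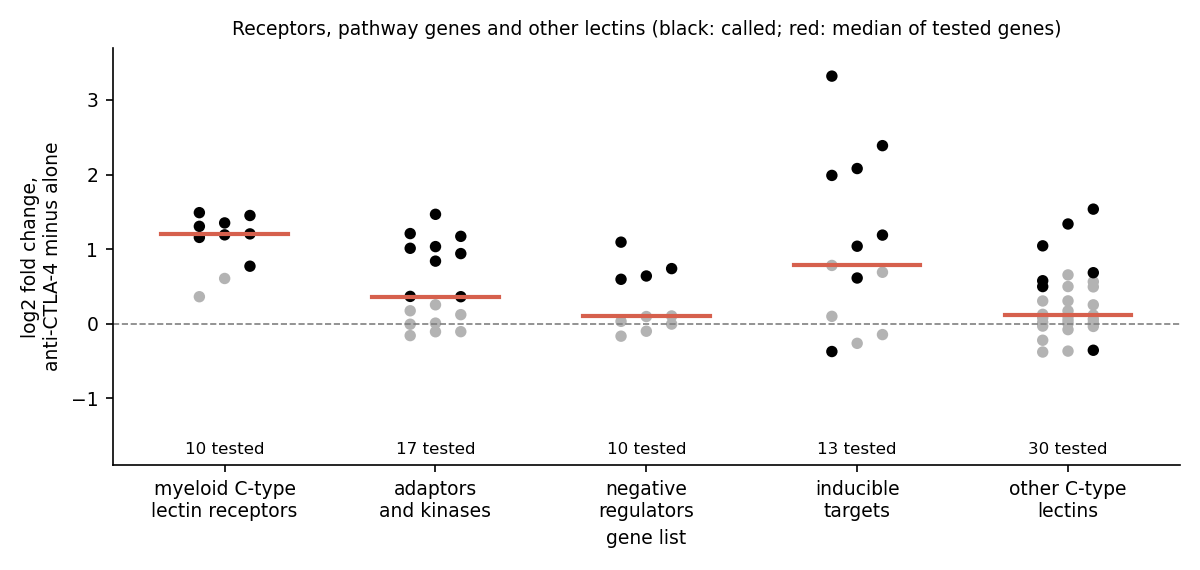
Log2 fold change (anti-CTLA-4 minus the bacterium alone) of each tested gene in the receptor list and in the lists of adaptors and kinases, negative regulators, target genes and other C-type lectins, 1 point per gene, black for adjusted p below 0.05 in limma and grey otherwise, with a red line at each median. The receptors centre on 1.20, the adaptors and kinases on 0.36 and the other lectins on 0.12.

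The genes whose course over the 9 libraries lay nearest to each member were found by the root mean square difference of log2(TPM + 1) profiles, each centred on its own mean, among 14013 protein-coding genes. For Clec4a2 the nearest was Itgal (0.0676) and for Clec4a3 it was Itgb2 (0.0738), which encode the chains of the leukocyte integrin LFA-1. For Clec4a1 it was Epsti1 (0.0907), for Clec4n Ube2l6 (0.0875) and for Clec4e Oas1a (0.158), all known as interferon-inducible. Clec12a lay nearest to Cybb (0.203), the NADPH oxidase chain of phagocytes, and Clec10a to Cd163 (0.110), the haemoglobin scavenger receptor of resident macrophages. Clec4d lay nearest to Lilr4b (0.115), Clec5a to Pira6 (0.119) and Clec7a to Gm1966 (0.134). Among the members, Clec4a1 and Clec4a2 were nearest to each other (0.0948) and Clec4a3 lay nearest to Clec4a1 (0.0961). Clec10a was the farthest from any other member (0.407, to Clec5a). A profile that changes little, such as that of Clec10a, gives small differences to many genes.

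Read totals recovered from the table were 10213535 to 13868425 per library. Some marker genes of other cell types rose as the members did and others fell, and except where a fit is named below their part in the result was not tested. Of 13 neutrophil genes 6 were tested and 3 rose: Csf3r, Retnlg and Cxcr2. The summed TPM of that list was 108 to 1480 with the bacterium alone and 1511 to 4462 with the antibody, mostly from S100a8 and S100a9, which keratinocytes also make. The neutrophil genes Ly6g, Ltf, Mpo, Elane, Mmp8 and Fpr1 stayed below 1 TPM in every library, and Ly6g, Elane and Fpr1 were at 0 in all 5 of the bacterium alone. With the antibody Ly6g lay between 0 and 0.153 TPM, Elane between 0 and 0.359 TPM and Fpr1 between 0.642 and 0.787 TPM. Of 12 dendritic cell and Langerhans cell genes 3 rose (Sirpa, Batf3 and Irf4; summed 241 to 290 and 257 to 306 TPM). Of 10 lymphocyte genes 6 were tested and 5 rose, such as Cd8a (1.85 to 11.5 TPM; list sum 18.9 to 25.5 and 45.4 to 64.5 TPM), with Ms4a1 below 1 TPM throughout. Of 10 mast cell, eosinophil and basophil genes 6 were tested and 3 rose, the mast cell proteases Cma1, Cpa3 and Mcpt4 (sum 156 to 225 and 262 to 272 TPM). The fold change was above 0 in 4 of the 6 and below 0 for Mrgprb2 and Kit, at log2 -0.36 and -0.16. Neither passed (limma, adjusted p = 0.0795 and 0.266). Siglecf, Epx, Prg2 and Mcpt8 stayed below 1 TPM.

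Keratinocyte genes were abundant, summing to 22984 to 28813.5 TPM for the bacterium alone and 20086 to 23662 TPM with the antibody. Of these 8 genes 1 rose, Krt1, from 792 to 1506 TPM (limma, adjusted p = 0.0245), and 4 of the 8 had a fold change above 0. The mean log2(TPM + 1) of 13 skeletal muscle genes was 6.39 ± 0.211 without and 5.99 ± 0.219 with the antibody, and 2 of them, Actn3 and Pvalb, fell. That of 12 hair follicle genes was 1.56 ± 0.254 and 1.17 ± 0.171, and 2 of the 7 tested, Krt73 and Msx2, fell, while Krt28, Krt72, Krt31 and Krt35 stayed below 1 TPM. With the muscle level as a covariate the members' log2 fold changes were 0.37 to 1.26, and 8 had an unadjusted p below 0.05 (limma). None passed after adjustment, where the lowest adjusted p was 0.0786, and the same fit called 1 of 15704 genes. With the hair follicle level as a covariate 4 members passed, Clec4d, Clec4a1, Clec4a2 and Clec4a3, with log2 fold changes of 0.39 to 1.69 over the 10. Of 10 genes induced by tissue handling, 1 rose (Atf3) and 1 fell (Jun). The sums of 8 fibroblast and endothelial genes were 1044 to 1618 and 1253 to 1613 TPM.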

How the data were processed

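RNA sequencing libraries of whole ear skin, 5 with the bacterium alone and 4 with anti-CTLA-4, were compared. The submitters' processing notes name STAR, HOMER and DESeq2 and the build mm10, without versions, roles or an annotation. The authors deposited a table of TPM per gene and library with gene positions. Multiplied by the table's genomic span, the TPM values of a library were whole multiples of one number. Within 0.1 reads, 100% of 4683 to 4998 low values per library came out whole, against 37.6% to 40.3% with that number shifted by 5%. The reads recovered in this way totalled 10213535 to 13868425 per library, and members had 6 to 670. TPM is thus scaled by span, introns included, which lowers genes with long introns in comparisons between genes but not between libraries. Whether reads in introns were counted was not stated in the sources used.

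The 15704 genes of 25124 that reached 1 TPM in 4 or more libraries were fitted by limma 3.58.1 (R 4.3.3) on log2(TPM + 1), with variances that follow the mean and no covariate. Tests were two-sided, with Benjamini-Hochberg adjustment over all tested genes and a threshold of 0.05. All 10 members passed the filter. The fit was checked on simulated data. Groups and replicate numbers came from the sample titles. The same fit was repeated after subtracting, in each library, the mean of 10 pan-leukocyte or 14 monocyte and macrophage genes.

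The members and lists were chosen with earlier results of these data known. The text names all members, the tested genes with the smallest p in each described list (4 at most), markers below 1 TPM throughout, and the nearest profiles; other names are marked as chosen later or given with a count. A few genes under this rule are counted but not reported by name. Alternatives were other pseudocounts, filters and scalings, array weights, a replicate block, muscle and hair follicle covariates, and leaving out each library. A limma voom fit to the recovered reads was added after the data were seen. Promoter windows are from RefSeq (GRCm38.p6), and transcript lengths from GENCODE M21.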

Additional observations from a re-analysis of the deposited data

How the results depend on the processing

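The direction of all 206 values of single members was kept under the 21 alternatives on the log2(TPM + 1) scale. Of the 10 members 8 were called in the fit described, and 7 to 8 in fits without a library. The count was 5 with at least 5 TPM required in 4 libraries, a filter that left 6 members to test, 0 with the skeletal muscle covariate and 4 with the hair follicle covariate. Clec12a was not called without a filter (limma, adjusted p = 0.0870). Of the signalling partners and negative regulators 13 were called, 12 to 14 without a library, 0 with the muscle covariate and 7 with the hair covariate. Of the target genes 8 were called, 6 to 9 without a library, 5 with no filter, 0 with the muscle covariate and 1 with the hair covariate. Of the other C-type lectins 7 were called, and 2 to 6 without a library. There were 3 with no filter, 2 at 5 TPM, 4 with the replicate block (0 of them lower), 0 with the muscle covariate, 1 with the hair covariate and 11 by voom.

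Relative to pan-leukocyte genes 4 members were called, 2 higher and 2 lower, where 94.5% of all genes were called. The count was 1 to 5 without a library and 2 at 5 TPM (1 higher and 1 lower). It was 1 with the muscle covariate and 1 with the hair covariate, both lower. Leaving out replicate 1 or 2 of the bacterium alone, or antibody replicate 2 or 3, gave 2, and leaving out antibody replicate 1 gave 1. In these fits 0 members were higher. Relative to monocyte and macrophage genes 8 were called, 7 higher and 1 lower, where 90.4% of all genes were called. The count was 5 to 8 without a library. It was 5, all higher, when replicate 1 or 4 of the bacterium alone, or antibody replicate 2 or 3, was left out. There were 4 with a pseudocount of 5, 5 at 5 TPM, 5 with array weights and 1 with the muscle covariate. Apart from the tighter filters, which test fewer genes, the cause was not tested.

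Over all tested genes 1828 were called, 1277 of 25124 with no filter, 225 with the hair covariate, 1 with the muscle covariate, 681 with the replicate block, 2743 after quantile normalization and 2981 by voom. Deviations of same-numbered libraries correlated at -0.009, 0.018, -0.091 and -0.093, and those of differently numbered libraries at -0.062 to 0.099. No pairing by replicate number was seen, but this check cannot show how the libraries were handled. With the block 9 members were called, Clec5a among them (limma, adjusted p = 0.0213). No antibody library has the number 5, so the block takes up replicate 5 of the bacterium alone. The log2 fold change of Clec5a was 0.68 with the block and also in the fit without that replicate. The latter fit did not call it (limma, adjusted p = 0.0587). Counting error limits Clec4e most, which had 6 reads in its lowest library.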

Other observations

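Fpr1, a receptor for bacterial formyl peptides on neutrophils and monocytes, was listed at 0 in all 5 libraries of the bacterium alone and between 0.642 and 0.787 TPM in all 4 with the antibody. It lay below the filter, was chosen after its values were seen and was not tested. How many genes were at 0 in all 5 and above 0 in all 4 was not counted. How unusual this pattern is therefore cannot be said. The reads behind the Fpr1 values are not reported here.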
